A study of Homo sapiens with 2 samples.

Results

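The circadian clock genes are 10 of the 25544 genes with rows in both deposited files: the activators BMAL1 (listed under its older name ARNTL) and CLOCK, the repressors PER1, PER2, PER3, CRY1 and CRY2, the nuclear receptors NR1D1 and NR1D2 (REV-ERB alpha and beta), and the output factor DBP. They were chosen by name, as the core loop and its closest readout, and the rule uses none of their values. RNA was sequenced from A549, a cell line from a human lung adenocarcinoma (non-small cell lung cancer in the labels). The shPSPC1 group is 1 library from A549 cells with a short hairpin RNA against PSPC1, and the shLacZ group is 1 library from A549 cells with a hairpin against LacZ, which is a gene of bacteria and has no human counterpart. Both were grown in medium with 10% serum and 1% penicillin-streptomycin. Whether the hairpin cells were a pool or a clone, how many hairpins were used, at what time after plating or medium change the cells were harvested, and whether they were synchronised are not given in the sources used here. Clock transcripts change with time of day and with serum, so the hairpin and a difference in clock phase at harvest cannot be told apart in 2 libraries.

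In the mammalian clock, BMAL1 pairs with CLOCK, or with its paralog NPAS2, and the pair binds E-box sequences to switch on the PER, CRY and NR1D genes and DBP. PER and CRY proteins assemble into large nuclear complexes that shut the pair off again, while REV-ERB proteins and the ROR receptors compete at RORE sequences in BMAL1 and CRY1. PSPC1 is a DBHS protein (Drosophila behaviour, human splicing), like NONO and SFPQ. DBHS proteins are known as components of PERIOD complexes, which recruit corepressors to clock promoters. Many cultured cell lines, tumour lines among them, keep some form of this loop.

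A gene's level is the sum of the FPKM (fragments per kilobase, relative to the mapped total of a library) of its RefSeq transcripts and of the assembled, stranded transcripts that share an intron with them. The ± beside each level comes from the deposited 95% intervals, which cover counting and assignment error within 1 library. For a gene with several transcripts their ± values were combined as the root of the summed squares. This takes their errors as independent, and a plain sum would be wider. Log2 ratios are shPSPC1 over shLacZ on the FPKM + 1 scale, which understates the change of low genes. With 1 library a group no test between the groups can be made and no difference has a replicate check. In place of a test, "rose" and "fell" are kept for genes past a rule of size: at least 1 FPKM in the higher library, a log2 ratio of at least 1 in size, and intervals that do not overlap. Since the level of a gene depends on which transcripts each file holds, a second measure, the estimated number of fragments on the gene, is given beside it.

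The depth worked out from the deposited intervals was 57100000 fragments in the shPSPC1 library and 56200000 in the shLacZ library. In the 11510 genes with at least 1 FPKM in either library the median log2 ratio was 0.01, and the middle 80% ran from -0.42 to 0.36. PSPC1 itself had 17.7 ± 0.858 FPKM in the shPSPC1 library and 31.5 ± 1.25 FPKM in the shLacZ library, a log2 ratio of -0.79 that leaves 56.3% of the shLacZ level and does not pass the rule. It was -0.58 for the most abundant transcript alone; over RefSeq transcripts alone PSPC1 was listed at 0 in the shPSPC1 library against 4.49 FPKM in the shLacZ library, and then passed. All 7 epithelial markers looked at (KRT7, KRT8, KRT18, KRT19, EPCAM, CDH1, CLDN1) were above 1 FPKM in both libraries, with log2 ratios all below 0 and a summed level of 2933 FPKM in the shPSPC1 library against 3726 in the shLacZ library. None of 12 leukocyte, fibroblast and endothelial markers reached 1 FPKM, their summed level was 0.855 FPKM in the shPSPC1 library and 1.40 FPKM in the shLacZ library, and CD3E and COL1A2 were among those listed at 0 in both.

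The start regions of 4 of the genes are printed here beside the levels and starts described below: NR1D2 has 2 starts whose shares of the gene differ between the libraries, PER2 has an annotated and an upstream start, PER1 and the downstream NR1D2 start carry E-boxes, and BMAL1 carries the RORE core that ROR and REV-ERB receptors recognise. Each is the RefSeq window on GRCh38.p14 from 250 bases before to 50 bases after a transcript start, 5′ to 3′ on the gene's strand. Capitals mark matches, on either strand, to the E-box CACGTG, the E′-box CACGTT, the RORE core AGGTCA and the D-box TTATGTAA, to which DBP and NFIL3 bind. The windows are, in order, chr3:23945036-23945335 (+), chr3:23945871-23946170 (+), chr2:238288561-238288860 (-), chr17:8152355-8152654 (-) and chr11:13277540-13277839 (+).
NR1D2 upstream start: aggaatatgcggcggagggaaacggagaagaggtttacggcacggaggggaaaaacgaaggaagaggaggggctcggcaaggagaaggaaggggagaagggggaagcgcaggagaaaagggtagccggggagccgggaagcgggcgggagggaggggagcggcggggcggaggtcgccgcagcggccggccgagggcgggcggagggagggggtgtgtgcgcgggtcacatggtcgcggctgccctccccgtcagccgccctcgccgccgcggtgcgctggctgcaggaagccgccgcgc
NR1D2 downstream start: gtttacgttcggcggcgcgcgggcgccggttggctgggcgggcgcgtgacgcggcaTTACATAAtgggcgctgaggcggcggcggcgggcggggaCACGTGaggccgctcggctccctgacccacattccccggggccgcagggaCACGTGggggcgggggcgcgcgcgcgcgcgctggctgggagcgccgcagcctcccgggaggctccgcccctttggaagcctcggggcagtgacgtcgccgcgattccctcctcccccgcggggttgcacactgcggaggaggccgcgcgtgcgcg
PER2 annotated start: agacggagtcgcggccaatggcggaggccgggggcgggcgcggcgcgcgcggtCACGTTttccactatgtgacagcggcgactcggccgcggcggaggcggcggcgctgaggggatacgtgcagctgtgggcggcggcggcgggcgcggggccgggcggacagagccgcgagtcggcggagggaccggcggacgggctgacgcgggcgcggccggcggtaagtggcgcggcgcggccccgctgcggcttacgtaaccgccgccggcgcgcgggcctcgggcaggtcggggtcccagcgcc
PER1 start: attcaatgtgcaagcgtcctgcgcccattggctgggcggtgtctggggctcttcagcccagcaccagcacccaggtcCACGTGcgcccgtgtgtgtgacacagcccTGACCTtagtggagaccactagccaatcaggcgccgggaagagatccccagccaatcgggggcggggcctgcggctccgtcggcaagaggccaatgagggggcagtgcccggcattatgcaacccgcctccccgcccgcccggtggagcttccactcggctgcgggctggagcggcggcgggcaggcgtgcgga
BMAL1 start: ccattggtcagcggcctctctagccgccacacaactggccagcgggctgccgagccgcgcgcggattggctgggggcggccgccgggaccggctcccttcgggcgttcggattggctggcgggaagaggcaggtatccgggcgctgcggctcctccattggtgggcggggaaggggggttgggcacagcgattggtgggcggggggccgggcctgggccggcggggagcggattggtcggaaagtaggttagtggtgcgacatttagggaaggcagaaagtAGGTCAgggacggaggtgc

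All 10 genes had at least 1 window in the RefSeq table, 15 windows in all. The upstream NR1D2 window holds none of these motifs, whereas the downstream one holds 2 E-boxes, 155 and 105 bases before the start, and a D-box 194 bases before it. PER1 has an E-box 173 bases and an RORE core 144 bases upstream. PER2 has an E′-box 197 bases upstream, and CLOCK, CRY1, CRY2 and NR1D1 each have an E′-box in 1 window. CRY2 also has an RORE core, 62 bases upstream in 1 window and 64 bases upstream in the other. The CRY1 window holds no RORE core. The BMAL1 RORE core lies 32 bases after the start, PER3 has a D-box 177 bases upstream, and no member window holds the cAMP response element TGACGTCA. These short motifs are common or rare in general: of 35116 windows in the table, 7.26% hold the E-box, 5.34% the E′-box, 13.8% the RORE core, 0.886% the D-box and 1.85% the cAMP response element. A match describes the letters of a window, and says nothing of binding in these cells.

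The clock genes as a group were near their shLacZ levels in the shPSPC1 library. At least 1 FPKM in either library was reached by 8 of the 10, all but PER1 and PER3. By the rule of size 1 of these, NR1D1, was counted higher and 0 lower, beside 1.71% of the 11510 genes counted higher and 2.01% counted lower. By fragments it was again NR1D1 alone, beside 1.55% of genes higher and 1.69% lower, and with 1.5-fold in place of 2-fold also NR1D1 alone, beside 4.40% higher and 5.49% lower. The NR1D1 count rests on how a piece of RNA at its 3′ end was assembled and ends under 4 other settings, as described below. Of the other 9 genes, 6 had log2 ratios above 0 and 3 below, all between -0.18 and 0.21, and their median was 0.07 by both measures. Intervals of the 2 libraries were apart for PER2 alone among these 9, and by fragments for PER2 and NR1D2. They were apart for 51.6% of all genes tested, and for 48.6% by fragments. These shares take in genes of every level from 1 FPKM, and intervals are narrower, relative to the level, for genes with more fragments. PER1 and PER3 are below that minimum. No share was worked out for genes of like level, so the counts do not show that clock genes differ less than others.

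**Figure D1:**
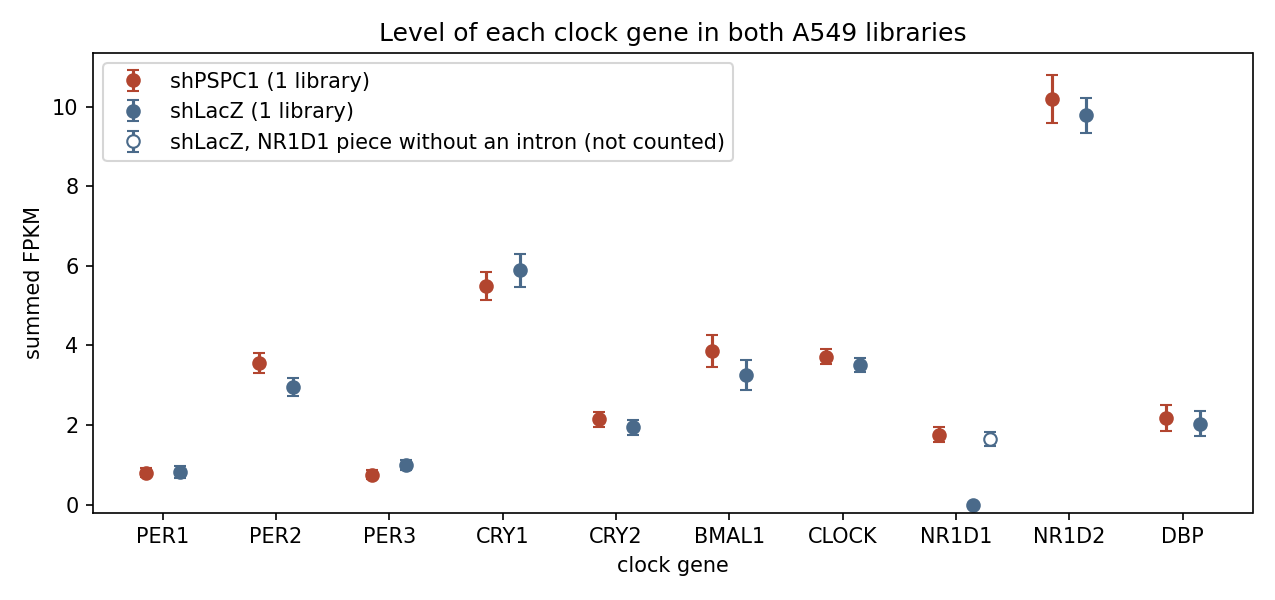
Summed FPKM (y axis) of the 10 clock genes (x axis) in the shPSPC1 library (red, left) and the shLacZ library (blue, right). Bars are the deposited 95% intervals, combined over transcripts as the root of the summed squares. The open circle is an unspliced piece at NR1D1 in the shLacZ library that the intron rule leaves out. NR1D2 is the highest in both libraries, at 10.2 and 9.78 FPKM, and PER1 and PER3 lie below 1 FPKM.

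The order of the levels was close to the same in the 2 libraries. NR1D2 stood first, at 10.2 FPKM in shPSPC1 cells and 9.78 FPKM in shLacZ cells, and CRY1 second, at 5.49 and 5.89 FPKM. BMAL1, CLOCK and PER2 came next, between 3.56 and 3.86 FPKM in shPSPC1 cells and between 2.95 and 3.50 FPKM in shLacZ cells, and neighbours among these 3 had overlapping intervals in each library. DBP and CRY2 followed with overlapping intervals, and PER1 and PER3, with overlapping intervals in each library, were below 1 FPKM in both. NR1D1 has no fixed place in this order: it lay between CRY2 and PER1 in shPSPC1 cells, at 1.76 FPKM, and was at 0 in shLacZ cells, for the reason of assembly given below. Since FPKM is per length, these levels can be set against each other across genes.

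Of the activators, BMAL1, the E-box-binding partner without which the loop does not run in mice, had 3.86 ± 0.406 FPKM in the shPSPC1 library and 3.26 ± 0.371 FPKM in the shLacZ library. Its log2 ratio was 0.19 (± 0.17), with overlapping intervals and an estimated 576 fragments against 477. All its reads were given to 3 RefSeq transcripts with the same start, chr11:13299325-13408813 on the + strand in the files' coordinates, which are positions of GRCh37. NM_001030272, with 19 exons, had 1.69 ± 0.266 FPKM in shPSPC1 cells and 1.87 ± 0.269 FPKM in shLacZ cells. NM_001030273, with 20 exons, had 0.685 ± 0.177 FPKM in shPSPC1 cells and 0.773 ± 0.190 FPKM in shLacZ cells. NM_001178, also with 20 exons, had 1.49 FPKM in shPSPC1 cells (interval 1.24 to 1.74) and 0.613 FPKM in shLacZ cells (0.442 to 0.785), or 38.6% of the gene's FPKM against 18.8%. The small surplus of BMAL1 in shPSPC1 cells thus sat in NM_001178, and it was the transcript of the 3 whose intervals were apart.

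CLOCK, the BMAL1 partner and a histone acetyltransferase, had 3.72 ± 0.197 FPKM in the shPSPC1 library and 3.50 ± 0.173 FPKM in the shLacZ library, a log2 ratio of 0.07 (± 0.08), with 2199 and 2042 fragments. Its transcripts span chr4:56294068-56413076 on the - strand and differ in their first exon. The most upstream first exon, that of NM_004898, carried 2.21 ± 0.145 FPKM in shPSPC1 cells and 2.94 ± 0.153 FPKM in shLacZ cells. A downstream first exon, that of NM_001267843, carried 0.565 ± 0.0809 FPKM in shPSPC1 cells and 0.561 ± 0.0812 FPKM in shLacZ cells. A further assembled transcript that starts between these, at position 56412713, had 0.945 ± 0.107 FPKM in the shPSPC1 file, 25.4% of the gene's FPKM there, and is not in the shLacZ file. The share of the most upstream first exon was accordingly 59.4% in shPSPC1 cells against 84.0% in shLacZ cells, while the sum over starts barely differed. How far this split follows from the files holding unlike sets of CLOCK transcripts was not tested.

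The paralogs of this pair differed more between the libraries. BMAL2 (ARNTL2), which can stand in for BMAL1 as a CLOCK partner, had 8.04 ± 0.317 FPKM in the shPSPC1 library and 17.7 ± 0.421 FPKM in the shLacZ library, or 3266 fragments against 7084. It fell, with a log2 ratio of -1.05 by both measures, and was in both libraries more abundant than BMAL1. All of it lies in annotated transcripts. It is close to the threshold: after rescaling to an equal sum of FPKM without mitochondrial genes its log2 ratio was -0.96 and it no longer passed. NPAS2, the CLOCK paralog, had 5.98 ± 0.426 FPKM in shPSPC1 cells and 2.71 ± 0.224 FPKM in shLacZ cells, a log2 ratio of 0.91 that does not pass the rule. Its full-length RefSeq transcript had 3.39 ± 0.252 FPKM in shPSPC1 cells and 2.71 ± 0.224 FPKM in shLacZ cells, a log2 ratio of 0.24, and the rest was a 5-exon assembled transcript of 1840 bases at 2.59 FPKM in the shPSPC1 file. By fragments the NPAS2 log2 ratio was 0.57. With a pseudocount of 0.1 it would pass the rule, at 1.11.

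**Figure D2:**
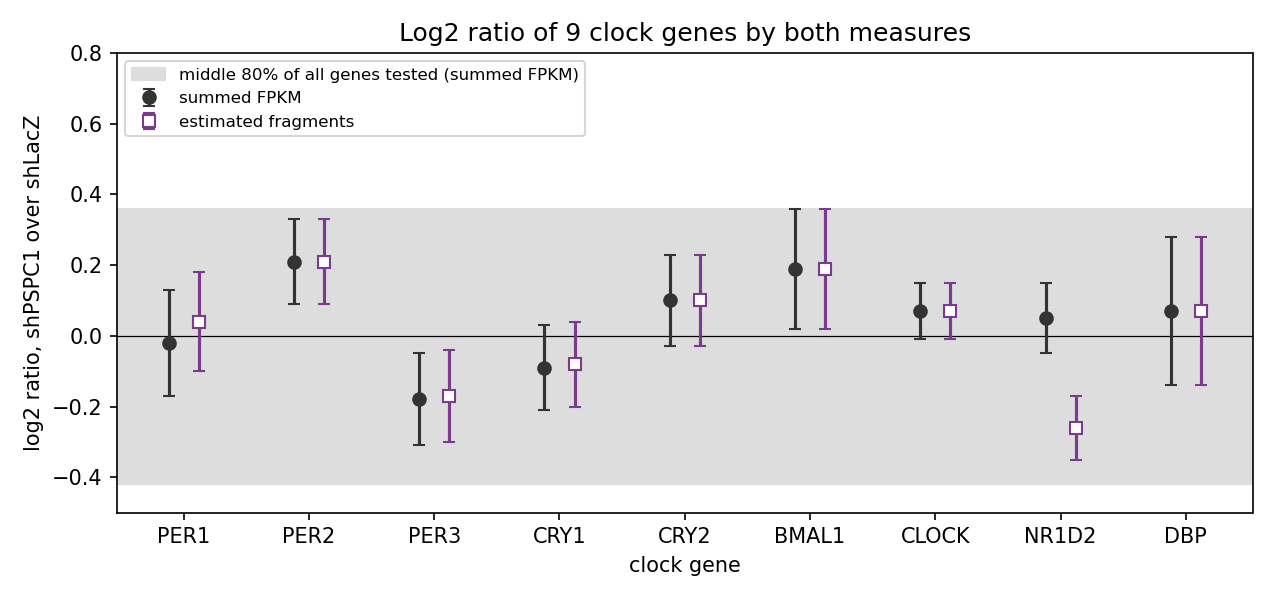
Log2 ratio, shPSPC1 over shLacZ (y axis), of 9 clock genes (x axis) by summed FPKM + 1 (filled circles) and by estimated fragments (open squares), with the deposited 95% intervals carried through; the grey band is the middle 80% of all genes tested. All 9 lie inside the band, and the measures part at NR1D2, at 0.05 by summed FPKM and -0.26 by fragments; NR1D1, which the shLacZ file gives no spliced transcript above 0, is left out.

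Among the PER genes, the rate-limiting parts of the repressor complex, PER2 had 3.56 ± 0.257 FPKM in the shPSPC1 library and 2.95 ± 0.225 FPKM in the shLacZ library. Its log2 ratio was 0.21 (± 0.12) by both measures, with 1260 fragments against 1021, and its intervals were apart. PER2 (chr2:239152679-239197207, - strand) was read from more than 1 first exon. Transcripts whose first exon ends where the annotated one does had 2.24 ± 0.205 FPKM in shPSPC1 cells and 1.32 ± 0.153 FPKM in shLacZ cells, intervals apart. The window of the annotated start is printed above. Of the shPSPC1 value, 0.548 FPKM was an assembled transcript of that file only, which starts further upstream, at position 239197309. Transcripts with an assembled first exon further upstream had 1.32 ± 0.155 FPKM in shPSPC1 cells and 1.63 ± 0.165 FPKM in shLacZ cells, intervals overlapping. Transcripts with the annotated end of the first exon thus held 63.0% of PER2 in shPSPC1 cells against 44.8% in shLacZ cells. The RefSeq transcript alone held 47.6% against 44.8%. Over intron chains found in both files PER2 had 3.01 FPKM in shPSPC1 cells and 2.95 FPKM in shLacZ cells, a log2 ratio of 0.02. Each file holds its own assembled PER2 transcripts, and how far the split follows from sharing reads among unlike sets of transcripts was not tested.

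PER1, which responds quickly to serum, cAMP and glucocorticoids, had 0.801 ± 0.111 FPKM in the shPSPC1 library and 0.831 ± 0.151 FPKM in the shLacZ library. The log2 ratio was -0.02 by summed FPKM and 0.04 by fragments, with 208 and 191 fragments on chr17:8043788-8055753 (- strand), so no difference was detectable at this depth. PER3, the least essential of the PER genes in mice, had 0.755 ± 0.109 FPKM in the shPSPC1 library and 0.985 ± 0.124 FPKM in the shLacZ library. Its log2 ratio was -0.18 (± 0.13), the lowest of the 10 by summed FPKM, with overlapping intervals and 268 against 338 fragments. The RefSeq PER3 transcript (chr1:7844763-7905237, + strand) was listed at 0 in both files and all PER3 FPKM lay in assembled transcripts. Those of the shPSPC1 file begin with an extra upstream first exon that ends at position 7844437, whereas those of the shLacZ file use the annotated first exon, so not a single PER3 transcript is common to the files with a value above 0.

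CRY1, the stronger of the cryptochrome repressors, had 5.49 ± 0.351 FPKM in the shPSPC1 library and 5.89 ± 0.414 FPKM in the shLacZ library, a log2 ratio of -0.09 (± 0.12) with 982 and 1033 fragments (chr12:107385142-107487635, - strand). CRY2 had 2.14 ± 0.193 FPKM in the shPSPC1 library and 1.94 ± 0.185 FPKM in the shLacZ library, a log2 ratio of 0.10 (± 0.13) with 494 and 440 fragments (chr11:45868669-45904799, + strand). Neither cryptochrome was separated from its shLacZ level by more than its interval. The CRY2 transcript with the upstream start, NM_001127457, was listed at 0 in both files.

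NR1D2, REV-ERB beta, a repressor of BMAL1 transcription, was the most abundant clock gene. It had 10.2 ± 0.609 FPKM in the shPSPC1 library and 9.78 ± 0.450 FPKM in the shLacZ library, a log2 ratio of 0.05 (± 0.10). By fragments it had 2296 in shPSPC1 cells and 2760 in shLacZ cells, 83.2% of the shLacZ number, a log2 ratio of -0.26 (± 0.09) with intervals apart. The measures part over 1 transcript: the shPSPC1 file holds, beside the 2 RefSeq transcripts, a short assembled one of 7 exons and 1776 bases at 3.08 ± 0.471 FPKM that ends at position 24033676, past the annotated 3′ end at 24022109. FPKM is per length, so the same number of fragments weighs more on a short transcript. A direction for NR1D2 as a whole therefore depends on the measure.

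Within NR1D2 the downstream start was given a larger share of the gene in shPSPC1 cells. The transcript from the downstream start, NM_001145425, whose window holds the E-boxes and the D-box, had 4.79 ± 0.308 FPKM in shPSPC1 cells and 3.63 ± 0.293 FPKM in shLacZ cells, intervals apart. Transcripts from the upstream start, whose window holds none of these motifs, summed to 5.40 ± 0.525 FPKM in shPSPC1 cells and 6.15 ± 0.341 FPKM in shLacZ cells, intervals overlapping. The downstream share was 47.0% in shPSPC1 cells against 37.1% in shLacZ cells by FPKM, 58.3% against 36.1% by fragments, and 67.4% against 37.1% over RefSeq transcripts alone. NR1D2 was the 1 of 7 clock genes with a RefSeq transcript in this comparison whose share differed by 0.3 or more with intervals apart: NM_005126, from the upstream start, was 22.8% of the gene in shPSPC1 cells against 62.9% in shLacZ cells. Of all 10591 genes compared this way 19.4% had such a transcript, so a shift of this size in a single RefSeq transcript is common between these files. The short assembled NR1D2 transcript is in the shPSPC1 file only. How far the split between starts follows from sharing reads among unlike sets of transcripts was not tested.

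**Figure D3:**
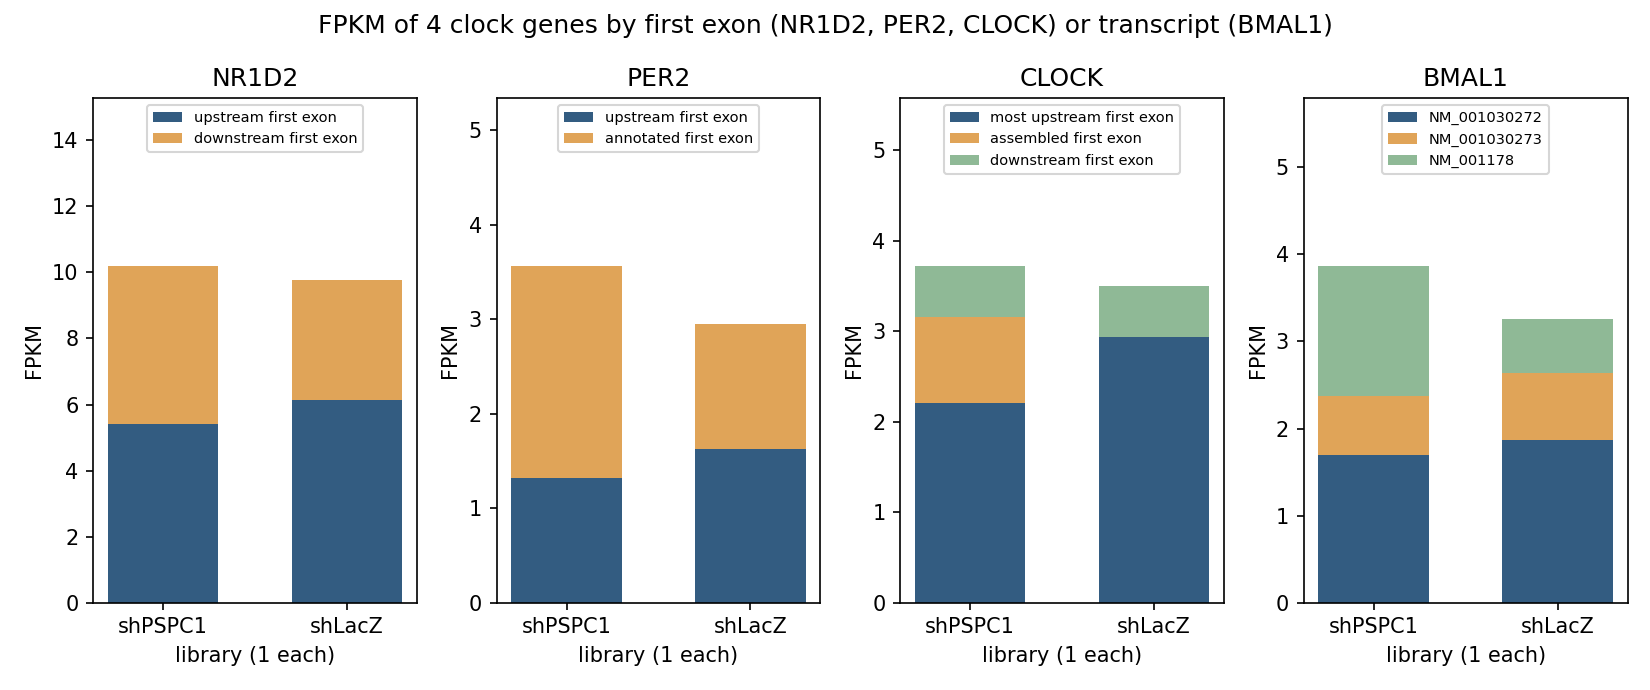
FPKM (y axis) in the shPSPC1 library (left bar of each panel) and the shLacZ library (right bar) for NR1D2, PER2 and CLOCK by first exon and for BMAL1 by RefSeq transcript, 1 library each; colours are the first exons or transcripts named in each key. The downstream NR1D2 part is 4.79 against 3.63 FPKM, the annotated PER2 part 2.24 against 1.32 FPKM, the assembled CLOCK part 0.945 against 0 FPKM and the NM_001178 part of BMAL1 1.49 against 0.613 FPKM. The annotated PER2 part takes in an assembled shPSPC1 transcript that shares only the end of that exon.

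NR1D1, REV-ERB alpha, overlaps the 3′ end of THRA, the thyroid hormone receptor alpha gene, on the opposite strand. Its RefSeq transcript NM_021724 (chr17:38249037-38256973, - strand) was listed at 0 in both files. The shPSPC1 file holds a 2-exon assembled transcript, chr17:38245381-38250422 on the - strand, at 1.76 ± 0.188 FPKM and 428 fragments, which shares 1 intron with NR1D1 and so counted as NR1D1. The shLacZ file holds, over nearly the same interval, an unspliced assembled piece, chr17:38245452-38250131 on the - strand, at 1.65 ± 0.180 FPKM and 420 fragments, which has no intron and so did not count. Counting pieces that overlap an exon gives NR1D1 a log2 ratio of 0.06, which ends the call. No fold is given for NR1D1, and its main body was at 0 in both files, which can also be a failed estimate.

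No source used here gives the strand setting of the libraries, so reads of NR1D1 and THRA in their overlap cannot be told apart. THRA had 6.51 ± 0.478 FPKM in the shPSPC1 library and 5.11 ± 0.433 FPKM in the shLacZ library, a log2 ratio of 0.30, which was -0.32 over intron chains found in both files. The THRA transcript whose last exon overlaps NR1D1, NM_003250, which encodes the non-hormone-binding form, had 3.90 ± 0.379 FPKM in shPSPC1 cells and 2.36 ± 0.321 FPKM in shLacZ cells, intervals apart. The assembled 9-exon transcripts had 2.61 FPKM in shPSPC1 cells and 2.75 FPKM in shLacZ cells. They end before the annotated NR1D1, at positions 38247241 and 38247320, but overlap the assembled pieces described above. The form that overlaps the annotated NR1D1 was thus 59.8% of THRA in shPSPC1 cells against 46.1% in shLacZ cells.

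DBP, a PAR bZIP factor whose strong rhythm makes it a common readout of the loop, had 2.18 ± 0.321 FPKM in the shPSPC1 library and 2.03 ± 0.312 FPKM in the shLacZ library. Its log2 ratio was 0.07 (± 0.21), with 184 and 169 fragments on 1 RefSeq transcript (chr19:49133817-49140639, - strand). SPHK2, its neighbour on the opposite strand, was listed at 0 in both files. TEF, of the same family, had 2.08 ± 0.185 FPKM in shPSPC1 cells and 1.93 ± 0.180 FPKM in shLacZ cells, and HLF was below 1 FPKM in both. NFIL3, the repressor that competes with them at D-boxes, had 3.32 ± 0.348 FPKM in shPSPC1 cells and 1.78 ± 0.291 FPKM in shLacZ cells. Its log2 ratio of 0.63 does not pass the rule. It was 0.22 when a 2-exon assembled transcript of 0.929 FPKM in the shLacZ file was counted as well. That transcript has a share of at least 0.5 of its bases in NFIL3 exons but does not share the NFIL3 intron. DBP and TEF thus stayed within their intervals, while the NFIL3 value depends on that transcript.

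Across the 13 other clock transcription factors and regulators looked at, 7 had at least 1 FPKM, 0 rose and 1, BMAL2, fell, beside 1.71% of all genes tested counted higher and 2.01% counted lower. Their median log2 ratio was 0.07. The count of lower genes was 0 with the rescaling that ended the BMAL2 call and 2 over RefSeq transcripts alone, where BHLHE40 joined it at -1.99. The share of all genes counted lower was not worked out under these settings. BHLHE40 (DEC1), an E-box repressor, had 26.6 ± 0.973 FPKM in shPSPC1 cells and 26.7 ± 0.813 FPKM in shLacZ cells. CIPC, which inhibits the CLOCK pair, had 5.56 ± 0.305 FPKM in shPSPC1 cells and 4.76 ± 0.368 FPKM in shLacZ cells, and TIMELESS had 19.4 ± 0.523 FPKM in shPSPC1 cells and 20.9 ± 0.547 FPKM in shLacZ cells. RORA, an activator at RORE sequences, was below 1 FPKM in both libraries, and RORB was listed at 0 in both.

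Of 15 kinases, ubiquitin ligases and other enzymes that set the stability and activity of clock proteins, 14 had at least 1 FPKM, 0 passed the rule in either direction, and the median log2 ratio was -0.01. For this list and those below, a count of 0 stands beside 1.71% of all genes tested counted higher and 2.01% counted lower. In lists this short such a count says little. CSNK1D and CSNK1E, the kinases that mark PER proteins for decay, had 8.60 ± 0.518 and 10.8 ± 0.623 FPKM in shPSPC1 cells against 9.19 ± 0.469 and 13.0 ± 0.837 FPKM in shLacZ cells. FBXW11, an adaptor for phosphorylated PER proteins, had 19.7 ± 0.705 FPKM in shPSPC1 cells and 16.6 ± 0.633 FPKM in shLacZ cells. The log2 ratios of these 3 lay between -0.24 and 0.24 by summed FPKM. That of CSNK1E was -0.24 by summed FPKM and 0.09 by fragments, so its direction depends on the measure.

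The 2 largest differences of that list moved with the transcripts counted. CSNK2A1, the catalytic subunit of the kinase CK2, had 20.9 ± 0.875 FPKM in shPSPC1 cells and 33.7 ± 1.15 FPKM in shLacZ cells, a log2 ratio of -0.66. It was -1.19 by fragments, past the rule, and 0.57 over RefSeq transcripts alone, since long assembled transcripts were counted in the shLacZ file only. With assembled transcripts that overlap an exon counted as well, CSNK2A1 had 41.3 FPKM in shPSPC1 cells and 33.7 FPKM in shLacZ cells. The log2 ratio was then 0.29, so CSNK2A1 has no direction that holds across the settings. PRKAA1, an AMP-activated kinase subunit that marks CRY1 for decay, had 28.0 ± 1.19 FPKM in shPSPC1 cells and 18.5 ± 0.626 FPKM in shLacZ cells, a log2 ratio of 0.57 by summed FPKM and 0.04 by fragments. CSNK2A2, the other CK2 catalytic subunit, had 5.32 ± 0.478 FPKM in shPSPC1 cells and 6.92 ± 0.549 FPKM in shLacZ cells, a log2 ratio of -0.33 by both measures.

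**Figure D4:**
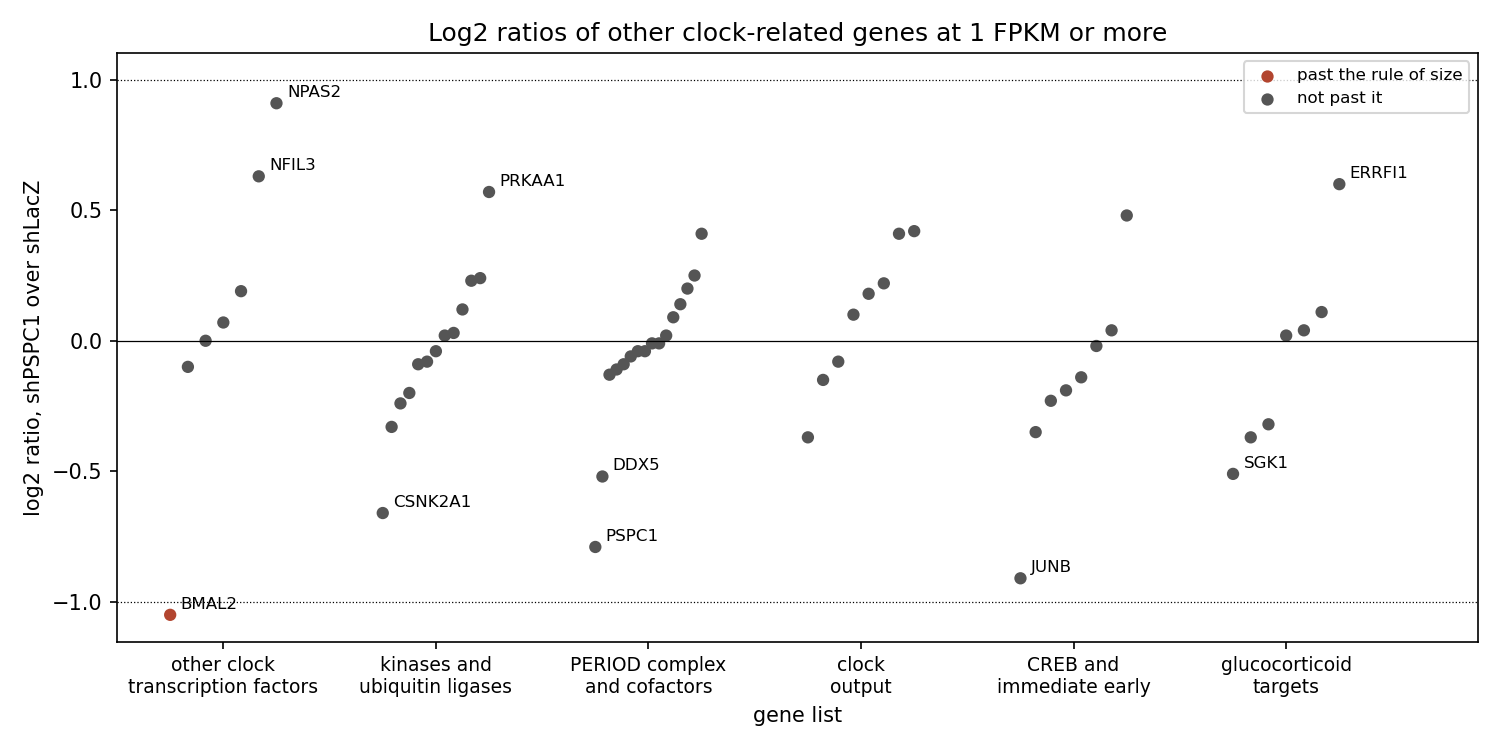
Log2 ratio of summed FPKM + 1, shPSPC1 over shLacZ (y axis), of the genes reported here with at least 1 FPKM in either library in 6 lists around the clock (x axis), each point 1 gene ordered by its ratio; names are given beyond 0.5 in size. BMAL2, at -1.05, is the point past the rule of size, and NPAS2, at 0.91, lies highest.

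Of 16 components of PERIOD complexes and clock cofactors, all were above 1 FPKM, 0 passed the rule and the median log2 ratio was -0.03. Over RefSeq transcripts alone 3 were counted lower, PSPC1, CBX3 (log2 ratio -1.50) and HDAC3 (-1.30), and over intron chains found in both files 1, CBX3. No share of all genes was worked out under these settings, so these counts cannot be set against one. NONO had 142 ± 2.18 FPKM in shPSPC1 cells and 133 ± 2.14 FPKM in shLacZ cells, a log2 ratio of 0.09. SFPQ had 159 ± 1.97 FPKM in shPSPC1 cells and 145 ± 1.89 FPKM in shLacZ cells, a log2 ratio of 0.14. The other DBHS genes were thus more abundant than PSPC1 in either library and near their shLacZ levels. DHX9, an RNA helicase found in PERIOD complexes, had 95.6 ± 2.01 FPKM in shPSPC1 cells and 71.8 ± 1.27 FPKM in shLacZ cells, a log2 ratio of 0.41, which was 0.14 by fragments and -0.31 over RefSeq transcripts alone. DDX5, a helicase of the same complexes, had 92.9 ± 1.36 FPKM in shPSPC1 cells and 134 ± 4.56 FPKM in shLacZ cells, a log2 ratio of -0.52, which was 0.06 by fragments and 0.68 over RefSeq transcripts alone. Neither helicase has a direction that holds across the measures. CBX3, a heterochromatin protein, had 97.3 ± 2.36 FPKM in shPSPC1 cells and 81.6 ± 1.73 FPKM in shLacZ cells, a log2 ratio of 0.25 by summed FPKM and 0.04 by fragments.

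Genes often read as clock output had no shared direction. Of 11, 9 had at least 1 FPKM, 0 passed the rule, 5 had log2 ratios above 0 and 4 below, and the median log2 ratio was 0.10 by summed FPKM and -0.07 by fragments. Over RefSeq transcripts alone 1 was counted higher, WEE1, a mitotic kinase, at 13.1 FPKM in shPSPC1 cells and 1.83 FPKM in shLacZ cells, whereas with assembled transcripts it had 13.1 and 12.1 FPKM. The share of all genes counted higher was not worked out over RefSeq transcripts alone. NAMPT, the rate-limiting enzyme of the NAD salvage pathway, had 64.3 ± 1.01 FPKM in shPSPC1 cells and 48.0 ± 0.879 FPKM in shLacZ cells. NOCT (nocturnin) had 6.98 ± 0.533 FPKM in shPSPC1 cells and 4.99 ± 0.468 FPKM in shLacZ cells. KLF9, also induced by glucocorticoids, had 0.567 ± 0.0957 FPKM in shPSPC1 cells and 1.02 ± 0.120 FPKM in shLacZ cells. Each of these 3 had intervals apart, as had 51.6% of all genes tested, and the signs were split.

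Signals that reset the clock were looked at through their other targets. Of 12 CREB targets and immediate early genes, 8 had at least 1 FPKM and 0 passed the rule, with a median log2 ratio of -0.17. JUNB had 11.5 ± 0.848 FPKM in shPSPC1 cells and 22.5 ± 0.983 FPKM in shLacZ cells, a log2 ratio of -0.91. It was 0.02 when assembled RNA of the shPSPC1 file with a share of at least 0.5 of its bases in JUNB exons was counted. SIK1, a kinase that damps CREB coactivators, had 35.1 ± 0.736 FPKM in shPSPC1 cells and 45.2 ± 1.03 FPKM in shLacZ cells, and DUSP1 had 35.1 ± 1.44 FPKM in shPSPC1 cells and 34.0 ± 1.14 FPKM in shLacZ cells. NR4A1 had 2.1 ± 0.249 FPKM in shPSPC1 cells and 1.22 ± 0.297 FPKM in shLacZ cells, a log2 ratio of 0.48 that passed the rule, at 1.01, over RefSeq transcripts alone. Under that setting no share of all genes was worked out. Of 8 glucocorticoid targets, 7 had at least 1 FPKM and 0 passed the rule, with a median log2 ratio of 0.02. ERRFI1 had 26.4 ± 0.790 FPKM in shPSPC1 cells and 17.1 ± 0.641 FPKM in shLacZ cells, SGK1 had 6.76 ± 0.539 FPKM in shPSPC1 cells and 10.0 ± 0.683 FPKM in shLacZ cells, and TSC22D3 had 3.98 ± 0.484 FPKM in shPSPC1 cells and 3.62 ± 0.461 FPKM in shLacZ cells. Of the genes at 1 FPKM or more, 2 CREB and immediate early genes had log2 ratios above 0 and 6 below, and 4 glucocorticoid targets were above 0 and 3 below.

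Assembled transcripts of 3 clock genes used splice acceptors 3 bases from the annotated ones. In PER3 this was seen at 2 introns, in transcripts of 0.535 and 0.220 FPKM in the shPSPC1 file and 0.762 FPKM in the shLacZ file for chr1:7848307-7854016. In CRY1 it was seen in a shLacZ transcript of 1.03 FPKM at the intron chr12:107395150-107395541, and in PER1 in a shLacZ transcript of 0.107 FPKM at chr17:8052632-8052779. In each case the exon was 3 bases longer than annotated. Of 7 clock genes with an intron-sharing assembled transcript these 3 had such an acceptor, beside 6.60% of 5913 genes.

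Unspliced assembled pieces without a strand, which no gene level above includes, lay in introns of 5 of the clock genes. In CLOCK there were 10 pieces with 174 fragments in the shPSPC1 file (95% Poisson interval 149 to 202) and 1 piece with 10 fragments in the shLacZ file (4.80 to 18.4). Of these, 8 pieces with 151 fragments in the shPSPC1 file lay in the long first intron of NM_004898, chr4:56376233-56412948, where the shLacZ file has no piece. PER2 had 64 fragments in the shPSPC1 file (49.3 to 81.7) and 114 in the shLacZ file (94.0 to 137), the opposite order. BMAL1 had 117 fragments in the shPSPC1 file and 106 in the shLacZ file, and DBP 14 and 11. CRY2 had 0 in the shPSPC1 file (0 to 3.69) and 10 in the shLacZ file (4.80 to 18.4). The counting intervals were thus apart for CLOCK and for PER2, but they hold for the called pieces alone. Those of CLOCK cover 8363 bases in the shPSPC1 file and 405 in the shLacZ file. Those of PER2 cover 2886 and 4151 bases. For CRY2 the 0 means that no piece was called, so its interval cannot show a difference. Over all genes at 1 FPKM or more the shPSPC1 file held 1.27 times as many such fragments, and of 2121 genes with at least 50 of them in 1 library, 36.8% were at least 2-fold higher and 19.1% at least 2-fold lower in shPSPC1 cells. The intervals cover counting error only, and a piece is listed only where the assembler called one.

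**Figure D5:**
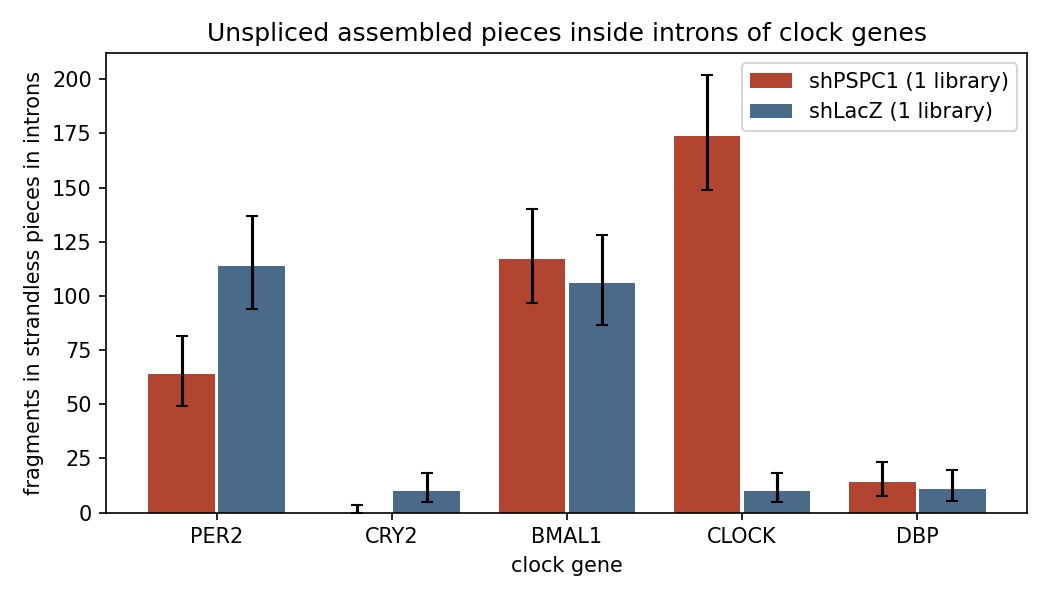
Estimated fragments (y axis, linear from 0) in strandless unspliced pieces inside introns of the 5 clock genes that had any (x axis), in the shPSPC1 library (red, left) and the shLacZ library (blue, right), with 95% Poisson intervals. CLOCK stands at 174 against 10 fragments and PER2 at 64 against 114.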

How the data were processed

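RNA-seq of 1 shPSPC1 and 1 shLacZ A549 library was analysed; groups come from the labels' source names. CASAVA 1.8.2, Cufflinks 2.1.1 and TopHat2 2.0.7 were used upstream, per the submitters' processing notes. The authors deposited 1 transcript table a library with FPKM and its 95% interval bounds, coverage and a score per transcript, per the file headers and attribute names; score and coverage were not used for any result. No source used here gives the build; gene positions in the files are those of GRCh37.

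Genes were named by RefSeq accession. Gene FPKM was summed over transcripts, and interval widths were combined as the root of the summed squares. These and the log2 ratios (pseudocount 1) were computed in Python 3.11.15 with pandas 2.3.3, and checked on simulated data. The deposited intervals widen as a Poisson count would, which gave each library's depth and fragment length; 95.7% (shPSPC1) and 95.5% (shLacZ) of transcripts with 5 to 200 estimated fragments then came out within 0.02 of a whole number. Promoter windows were matched to transcript starts by gene and length of the first intron, without converting coordinates. No p-value was computed, since each group has 1 library.

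The 10 genes and the other lists were chosen with earlier results of these data known. Named from each other list were genes past the rule of size, the 2 largest and 2 smallest log2 ratios at 1 FPKM or more, and PSPC1, NONO, SFPQ and THRA; CSNK1D, CSNK1E, TEF, HLF, BHLHE40, CIPC, HDAC3, WEE1, RORA and RORB were added after their values were seen, for their roles. Some genes of these lists are counted but not reported here by name. In bulk RNA, fewer expressing cells and less RNA per cell cannot be told apart.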

Additional observations from a re-analysis of the deposited data

Results flagged for a closer look

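Strandless unspliced pieces inside introns are in no gene level of the report. In CLOCK they held 174 fragments in the shPSPC1 file, above the 10 fragments of the shLacZ file. What these pieces derive from was not tested.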

How the results depend on the processing

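The count of clock genes past the rule of size was 1 higher (NR1D1) and 0 lower. The count of higher genes was 0 with a minimum of 5 FPKM, with RefSeq transcripts alone, with intron chains found in both files alone, and with assembled transcripts that overlap an exon counted as well, the last chosen after seeing the data. Other pseudocounts, scalings, folds and measures kept the count at 1, and no setting gave a lower gene. The median log2 ratio over the clock genes stayed between -0.02 and 0.16. Of 120 log2 ratios of single clock genes under other settings, 94 moved by less than their interval. The settings that change only the minimum FPKM cannot move a single ratio, and their values are among the 94. CLOCK ran from -0.29 to 0.15, NR1D2 from -0.41 to 0.14, PER3 from -0.38 to 0.00 and PER2 from 0.02 to 0.28. Rescaling to an equal sum without mitochondrial genes multiplied shPSPC1 levels by 1.070 and moved the median of all genes from 0.01 to 0.09. No paired analysis was possible because each group has 1 library. PER1 and DBP, near 200 fragments a library, have wide intervals for their levels.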
